A study of Saccharomyces cerevisiae with 9 samples.

Results

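The 10 genes described here encode the later-numbered UTP proteins and the IMP proteins of the small subunit processome in budding yeast. They were chosen by name, as 10 of the 7127 genes in the count files, with earlier results of these data known, and the rule itself uses no measured value. They are *NAN1* (YPL126W, also called *UTP17*), *UTP18* (YJL069C), *UTP20* (YBL004W), *UTP21* (YLR409C), *UTP22* (YGR090W), *UTP23* (YOR004W), *UTP25* (YIL091C), *UTP30* (YKR060W), *IMP3* (YHR148W) and *IMP4* (YNL075W). The data set held 9 mRNA-seq libraries of *Saccharomyces cerevisiae*, with 3 biological replicates each in early, mid and late log phase, and asked how the transcriptome changes within exponential growth. All 3 groups were the same wild-type strain in YPD, a rich glucose medium, at 30°C, with no added treatment, and differed in the cell density at harvest. The strain was MATa, with marker alleles in the adenine (ade2-1), uracil (ura3-1), tryptophan (trp1-1), leucine (*leu2* with the mutations 3 and 112) and histidine (his3-11) pathways and in the arginine permease gene (can1-100). In every group it also carried RPA135-(HA)3-(His)7::TRP1, a tagged subunit of RNA polymerase I. Of the mating-type markers, the 5 MATa genes had 19.6 to 993 CPM (counts scaled to library size) over the libraries and the 3 MATalpha genes 0.155 to 3.03 CPM.

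The small subunit processome is a large nucleolar assembly that forms on the 5′ end of the pre-rRNA while RNA polymerase I is still transcribing it. It holds the U3 snoRNA and many proteins, several of them in preformed complexes called UtpA, UtpB, UtpC and the Mpp10 complex, and it directs the early cleavages that release the 18S rRNA precursor. Genes of ribosome biogenesis in yeast are known for a pair of promoter motifs, PAC and RRPE, and for transcription that follows growth and nutrient supply.

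Each library held 22830165 to 34358259 reads counted on genes. Replicates of a subphase differed beyond sampling noise in every pair, and 2 libraries stood apart from their own group. The chi-square per degree of freedom between early log replicate 3 and the other early libraries was 435 and 488, against 8.65 between those others. For mid log replicate 1 it was 662 and 630, against 15.9 between mid log replicates 2 and 3. The paper also describes early log C and mid log A as deviating from their groups. It places their optical density at harvest at the top of the early log range and the bottom of the mid log range. These are the same libraries if its letters follow the replicate numbers. Run 1 of the sequencer held early log replicates 1 and 2, run 2 held the mid log libraries alone, and run 3 held early log replicate 3 and the late log libraries. Mid log and run 2 therefore cannot be told apart.

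All 10 genes are single-exon protein-coding genes in the R64 annotation, and none overlaps another annotated gene. The 1080 IDs of the files without coordinates in that annotation were not checked for overlap. No second copy of at least 50 bases at 97% identity was found in the genome for any of them. *UTP20* is the longest, with 7482 coding bases (chrII:227636-235117, + strand), and *IMP3* the shortest, with 552 (chrVIII:393534-394085, + strand). The median gene has 1194 coding bases. *NAN1* spans chrXVI:310210-312900 (+), *UTP18* chrX:310922-312706 (-), *UTP21* chrXII:934414-937233 (-) and *UTP22* chrVII:662358-666071 (+). *UTP23* spans chrXV:333592-334356 (+), *UTP25* chrIX:191030-193195 (-), *UTP30* chrXI:556518-557342 (+) and *IMP4* chrXIV:485607-486479 (+). Their coding GC content was 35.5% to 39.9%, against a median of 39.8%.

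The promoters were read from the RefSeq R64 genome as 250 bases before the start codon and 50 from it on. They were searched on both strands for the PAC core GATGAG, its longer form GCGATGAG, which contains the core, and the RRPE core AAAAATTT. GATGAG was present in 8 of the 10 promoters, against 20.4% of 6001 promoters of protein-coding genes. GCGATGAG was present in 5 of 10, against 3.93%, and AAAAATTT in 9 of 10, against 14.1%. Both cores were present together in 8 of 10, against 5.63%. In these 8 promoters, at least 1 RRPE copy lay farther from the start codon than the nearest PAC copy, but the order of all copies was not fixed. In *NAN1* the closest pair had PAC (-116) farther out than RRPE (-107). In *UTP25* a PAC copy (-213) lay farther out than both RRPE copies. The closest pair was separated by 3 to 35 bases, with a median of 7.5. *UTP30* had RRPE alone and *UTP22* had neither core in this window. Windows of 80 bases are shown for 6 promoters with both motifs, for *UTP30* and for *UTP22*, since they display the range of arrangements. Each is written 5′ to 3′ on the strand of the gene, with every copy of either core, or of its reverse complement, in capitals.
NAN1 (chrXVI:310050-310129, + strand): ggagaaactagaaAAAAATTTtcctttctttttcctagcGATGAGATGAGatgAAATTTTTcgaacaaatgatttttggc
UTP20 (chrII:227416-227495, + strand): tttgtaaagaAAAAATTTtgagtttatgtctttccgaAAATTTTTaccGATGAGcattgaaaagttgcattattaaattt
UTP21 (chrXII:937304-937383, - strand): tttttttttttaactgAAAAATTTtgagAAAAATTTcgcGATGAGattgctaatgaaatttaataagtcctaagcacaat
UTP25 (chrIX:193256-193335, - strand): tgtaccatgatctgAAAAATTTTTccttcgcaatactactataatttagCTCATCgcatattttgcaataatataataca
IMP3 (chrVIII:393414-393493, + strand): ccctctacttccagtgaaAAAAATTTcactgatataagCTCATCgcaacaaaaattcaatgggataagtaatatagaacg
IMP4 (chrXIV:485447-485526, + strand): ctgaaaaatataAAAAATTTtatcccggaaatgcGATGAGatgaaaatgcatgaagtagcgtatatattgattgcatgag
UTP30 (chrXI:556368-556447, + strand): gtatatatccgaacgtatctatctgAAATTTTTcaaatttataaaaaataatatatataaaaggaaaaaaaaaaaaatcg
UTP22 (chrVII:662208-662287, + strand): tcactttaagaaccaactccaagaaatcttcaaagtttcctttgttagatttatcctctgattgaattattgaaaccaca
In *NAN1* the capitals after the first RRPE run join 2 overlapping PAC copies, and an inverted RRPE follows them. In *UTP25* the unbroken capitals are 2 overlapping RRPE copies, 1 on each strand, and the PAC core is inverted, as it is in *IMP3*. Among the 63 other processome genes listed below, GATGAG was present in 55 and AAAAATTT in 48. These matches describe letters only and binding was not measured.

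**Figure D1:**
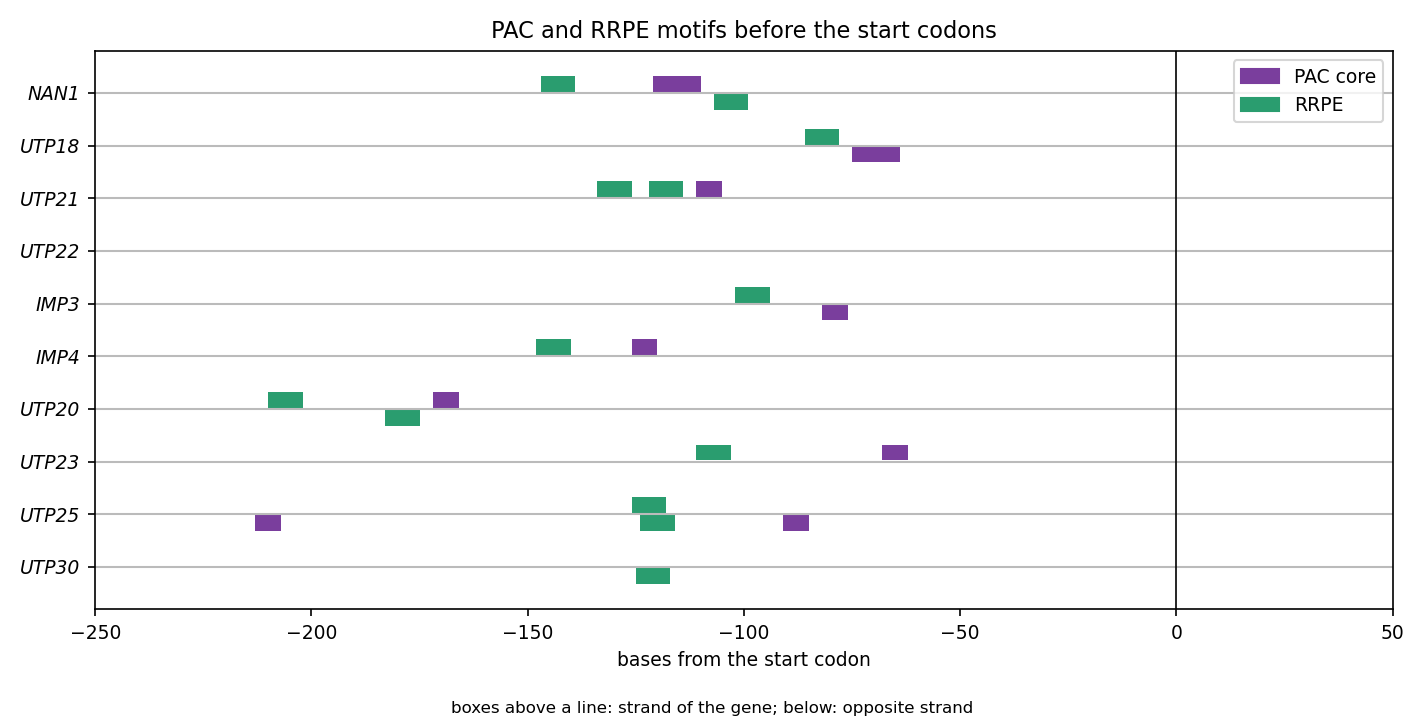
Positions of the PAC core (purple) and RRPE core (green) in the promoters of the 10 genes, in bases from the start codon at 0, with boxes above a line on the strand of the gene and boxes below it on the opposite strand. The motifs sit together before the start codon in 8 promoters, *UTP30* shows RRPE alone, and *UTP22* shows neither.

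Levels of different genes were compared as CPM per kb of coding length. In early log, *IMP4* averaged 66.1 ± 11.4 CPM per kb, *NAN1* 57.6 ± 1.26, *UTP23* 57.3 ± 5.98 and *IMP3* 47.6 ± 6.73 (SD, n = 3 each). *UTP21* followed at 45.5 ± 3.27 CPM per kb, *UTP22* at 36.2 ± 1.36, *UTP18* at 32.5 ± 0.358, *UTP25* at 24.2 ± 6.36, *UTP20* at 21.0 ± 4.29 and *UTP30* at 19.7 ± 4.99. Among neighbours in this order, only *UTP21* and *UTP22*, *UTP22* and *UTP18*, and *UTP18* and *UTP25* had libraries that did not overlap. In mid log the order began with *IMP4* at 47.6 ± 6.16, *UTP21* at 47.2 ± 11.0 and *UTP18* at 32.4 ± 1.76 CPM per kb, and it ended with *UTP30* at 2.59 ± 2.11. Only *UTP21* and *UTP18*, and *UTP25* and *UTP30*, were neighbours without overlap there. In late log *IMP4* was again first, at 38.7 ± 3.99 CPM per kb, ahead of *UTP21* at 30.5 ± 3.09 and *UTP18* at 29.4 ± 6.50. *IMP3* had moved to the eighth place at 7.43 ± 1.56 CPM per kb, and *UTP30* was last at 2.38 ± 0.200. Only *IMP4* and *UTP21*, and *UTP20* and *UTP30*, did not overlap with each other in late log. Among 5647 genes, *IMP3* stood at percentile 71.1 in early log, 42.8 in mid log and 36.7 in late log. *UTP18* stayed at percentile 62.0, 62.2 and 60.5 in the same order.

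**Figure D2:**
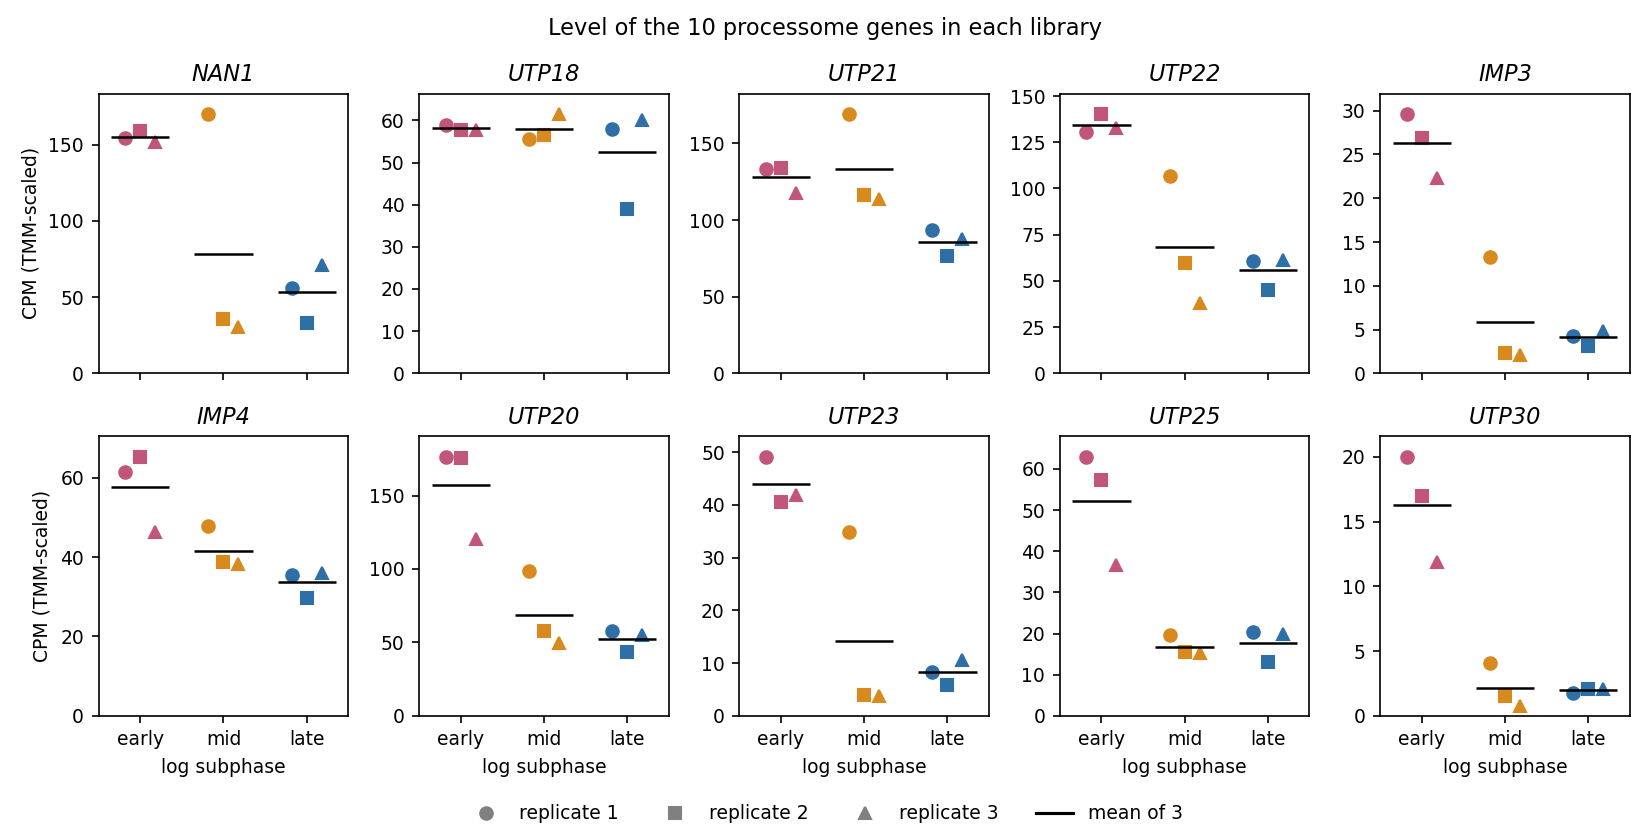
CPM scaled by TMM (y axis, from 0, own scale for each gene) in the 9 libraries, with early, mid and late log from left to right, a symbol for each replicate and a bar at the mean of 3. *UTP18* stays between 39.1 and 61.5 CPM, whereas *IMP3*, *UTP23* and *UTP30* show 3 late libraries far below the 3 early ones, and mid log replicate 1 lies above the other mid libraries in 9 of the 10 genes.

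Late log was set against early log to ask how far processome genes change over the whole of log phase. In late log 9 of the 10 genes were lower than in early log past the threshold, and none was higher, by the quasi-likelihood test of edgeR, with p-values adjusted after Benjamini and Hochberg over 5954 genes. Over all genes tested, 39.2% were called lower and 33% higher. The largest falls were in *UTP30*, *IMP3* and *UTP23*, and *UTP18* alone did not pass. In 9 genes every late library lay below every early library, which held for 39.2% of all genes. Over the 10 genes the log2 fold change had a median of -1.60, against -0.08 for all genes. The RNA came from whole cultures, and CPM is relative to the other transcripts of each library. Fewer cells with a transcript, less transcript per cell and a smaller share of the RNA without loss per cell cannot be told apart.

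The UtpA subunit gene *NAN1*, whose product belongs to the first complex to bind the nascent pre-rRNA, had 56.0, 33.2 and 71.0 CPM in late log libraries 1 to 3, against 155, 159 and 152 CPM in early log. The late libraries spread over a wider range than the early ones but stayed below them. *NAN1* was lower by -1.59 ± 0.25 on the log2 scale (SE, adjusted p = 0.00105), or 3.02-fold. In a fit of all 9 libraries its value was -1.54 and missed the threshold (adjusted p = 0.0517), which left 8 of the 10 called, where 30.2% of all genes were lower. Of the 6 other UtpA genes, 4 were called lower and none higher. *UTP5*, another UtpA subunit gene, had a log2 fold change of -4.11, while *UTP10* (0.04) and *UTP15* (0.29) did not pass, and both of these turned negative when libraries were scaled by their totals alone.

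The UtpB genes *UTP18* and *UTP21* encode WD40 repeat proteins of the same complex, and the Utp18 protein also recruits the RNA exosome helicase Mtr4 to the 5′ spacer. *UTP18* had 58.0, 39.1 and 60.2 CPM in late log, against 58.8, 57.8 and 57.7 CPM in early log. Only late log replicate 2 was clearly below the early libraries, and the groups overlapped. The log2 fold change of *UTP18* was -0.20 ± 0.17 (SE, adjusted p = 0.298), with a 95% interval of -0.60 to 0.19. With library totals it was -0.80 (adjusted p = 0.0043), so that all 10 genes were called lower, where 55.3% of all genes were. *UTP21* had 93.7, 76.5 and 87.6 CPM in late log, against 134, 134 and 118 CPM in early log. The *UTP21* groups did not overlap, and the log2 fold change was -0.63 ± 0.12 (SE, adjusted p = 0.00212). Once the trend with coding length was removed from each library, the values of *UTP21* (0.10) and *UTP18* (0.12) turned positive and neither passed. Of the 4 other UtpB genes, 3 were called lower, and *PWP2* (-0.12) did not pass.

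*UTP22* encodes the UtpC subunit that also joins Rrp7, casein kinase 2 and Ifh1, an activator of ribosomal protein genes, in the CURI complex. It had 60.9, 45.3 and 61.6 CPM in late log, against 131, 140 and 133 CPM in early log. All late libraries were far below the early range. The fall was -1.32 ± 0.14 on the log2 scale (SE, adjusted p = 0.000171). Of the 5 other UtpC genes, 3 were called lower and 1 higher. The lowest was *RRP7* (-4.79), the partner of *UTP22*, and the higher gene was *CKB1* (0.45), a casein kinase 2 regulatory subunit gene, whose value turned negative with library totals.

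*IMP3* and *IMP4* encode the partners of Mpp10, which help the U3 snoRNA to pair with the pre-rRNA. *IMP3* had 4.30, 3.16 and 4.85 CPM in late log, against 29.6, 26.9 and 22.3 CPM in early log. *IMP4* had 35.5, 29.8 and 36.0 CPM in late log, against 61.5, 65.3 and 46.4 CPM in early log. Neither gene's groups overlapped, but the gap was far wider for *IMP3*. The log2 fold change was -2.73 ± 0.21 for *IMP3* (SE, adjusted p = 5.72e-05) and -0.83 ± 0.16 for *IMP4* (SE, adjusted p = 0.00243), which is 6.63-fold and 1.77-fold lower. *MPP10*, the remaining gene of the complex, had a log2 fold change of -4.30 (adjusted p = 4.85e-05).

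The last 4 genes belong to none of these complexes. *UTP20* encodes a very large HEAT repeat protein, and had 57.9, 43.5 and 55.2 CPM in late log, against 176, 175 and 120 CPM in early log. *UTP25* encodes a protein related to DEAD-box helicases, and had 20.3, 13.2 and 19.9 CPM in late log, against 63.0, 57.3 and 36.8 CPM in early log. In both genes early log replicate 3 was the lowest early library, yet it lay above every late library. The log2 fold changes were -1.65 ± 0.19 for *UTP20* (SE, adjusted p = 0.000232) and -1.61 ± 0.25 for *UTP25* (SE, adjusted p = 0.000945). *UTP23* encodes a PIN-domain protein known for the release of the snR30 snoRNA, and had 8.37, 5.87 and 10.6 CPM in late log, against 49.1, 40.6 and 41.9 CPM in early log. *UTP30*, a gene for a protein with a ribosomal protein L1 domain, had 1.78, 2.04 and 2.08 CPM in late log, against 20.0, 17.0 and 11.9 CPM in early log. Both sets of groups were well separated. The falls were -2.46 ± 0.22 for *UTP23* (SE, adjusted p = 9.89e-05) and -3.10 ± 0.25 for *UTP30* (SE, adjusted p = 6.52e-05), or 5.49-fold and 8.56-fold.

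**Figure D3:**
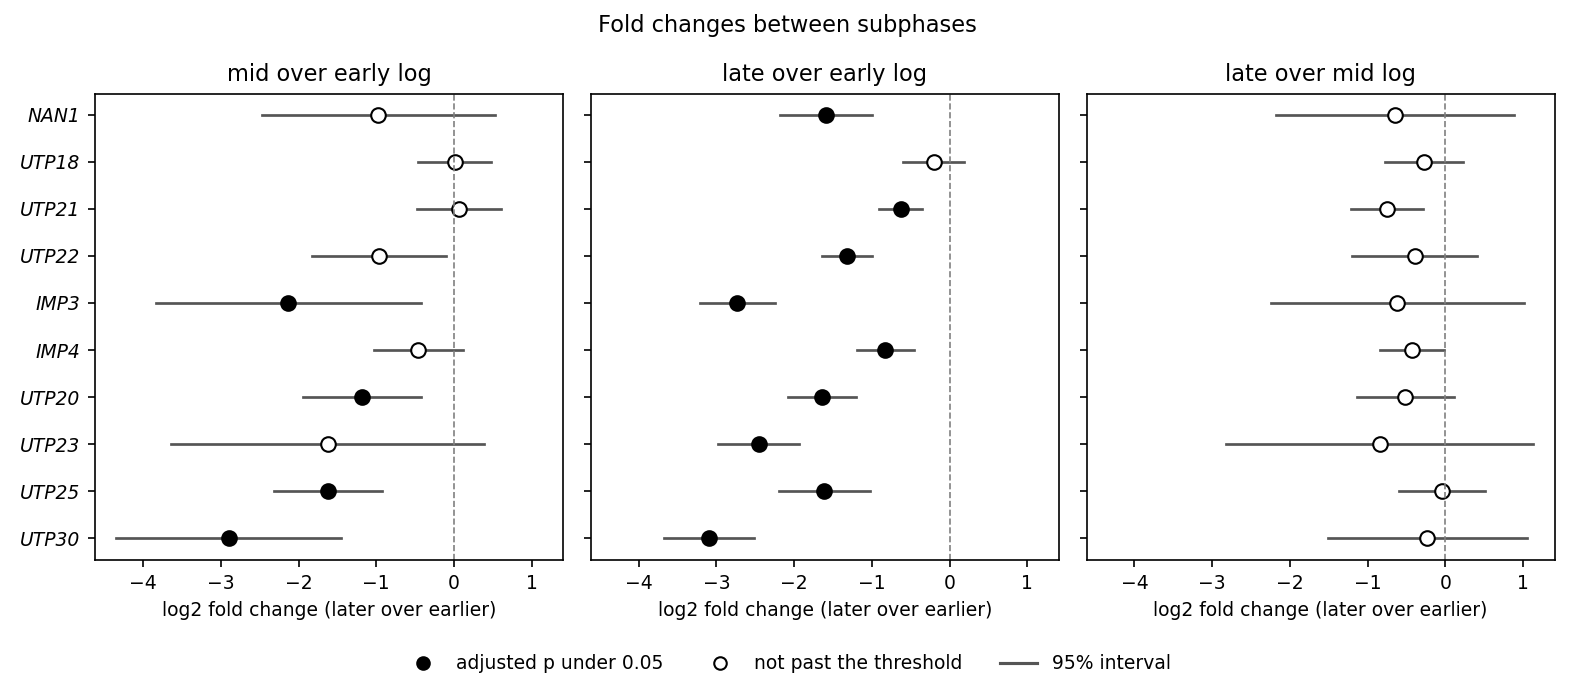
Log2 fold change of the later over the earlier subphase (x axis) with its 95% interval for each gene in the 3 comparisons, with filled circles where the adjusted p passed the threshold. Late over early log has 9 filled circles at or below -0.63, mid over early log has 4, and late over mid log has none.

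The late log fall was also read within 1 sequencing run. Against early log replicate 3 alone, the only early library of run 3, the same 9 genes were called lower, where 36.2% of all genes were, and the median over the 10 was -1.29 on the log2 scale. That fit takes the spread from the late libraries, since the lone early library has none of its own. When the run was added as a term to the fit over all 9 libraries, all 10 values stayed below 0 but only *UTP20* (-1.21), *UTP25* (-1.05) and *UTP30* (-2.59) passed, where 12.1% of all genes were called lower. The genes that no longer passed had log2 fold changes of -2.44 (*IMP3*), -2.34 (*UTP23*), -1.51 (*NAN1*), -1.25 (*UTP22*), -0.46 (*IMP4*) and -0.45 (*UTP21*), with adjusted p from 0.07 to 0.203. The term marks run 3, so late over early log again rests on early log replicate 3, while the spread also takes in the mid log libraries. The SE was 0.86 for *IMP3* and 1.06 for *UTP23* there, against 0.22 and 0.24 within run 3. Early log replicate 3 held 61.2% of the mean of early replicates 1 and 2 for *UTP25*, 64.1% for *UTP30*, 68.4% for *UTP20*, 73.2% for *IMP4* and 78.8% for *IMP3*. For the other 5 genes this share was between 88.0% and 98.9%. Whether the run, the harvest density or the culture accounts for it was not tested. Leaving out any 1 library kept all 9 calls, with medians from -1.71 to -1.40, where 35.5% to 42.4% of all genes were called lower.

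Mid log was set against early log to ask whether the change comes before late log. In mid log 4 of the 10 genes were lower than in early log, and none was higher, where 24.2% of the 5951 genes tested were called lower and 20.7% higher. The genes were *UTP20*, *UTP25*, *UTP30* and *IMP3*. *UTP20* had 98.9, 58.0 and 49.5 CPM in mid log and fell by 1.18 ± 0.32 on the log2 scale against early log (SE, adjusted p = 0.0249). *UTP25* had 19.7, 15.5 and 15.3 CPM in mid log and a log2 fold change of -1.62 ± 0.30 (SE, adjusted p = 0.0135). Its mid libraries were close together, and all lay below the early ones. *UTP30* had 4.10, 1.52 and 0.785 CPM in mid log, with -2.90 ± 0.61 on the log2 scale (SE, adjusted p = 0.0145). *IMP3* had 13.3, 2.31 and 2.11 CPM in mid log, with -2.13 ± 0.73 (SE, adjusted p = 0.0477). In both genes mid log replicate 1 was the highest of the mid libraries and still below the early range. In 6 genes, these 4 with *UTP22* and *UTP23*, every mid library lay below every early library, as in 34.3% of all genes. Without early log replicate 1, early log replicate 2, mid log replicate 2 or mid log replicate 3, none of the 10 genes passed, and neither did any other gene tested. In those 4 fits the median log2 fold change over the 10 genes was still -1.04 to -0.84, and that of *UTP30* was -2.88 to -2.51. An unadjusted p under 0.05 was found for 4 of the 10 each time, as for 40.7% to 41.3% of all genes. DESeq2's test called the same 4 genes, where 23.6% of all genes were lower. Without early log replicate 3, *IMP3* was lost and 3 passed (20.2% of all genes). *IMP3* also missed the threshold with library totals (adjusted p = 0.0583), no filter (0.0532), the length trend removed (0.0559) and the GC trend removed (0.0624). With the GC trend removed, *UTP20* stood at -0.56 (adjusted p = 0.184), which left 2 of the 10 called, where 20.6% of all genes were lower.

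Most of the spread in mid log came from replicate 1. *NAN1* had 170, 35.3 and 30.4 CPM in mid log replicates 1 to 3, and *UTP23* had 34.8, 3.88 and 3.68 CPM. Replicate 1 was thus at or near the early log level in these genes, and the other replicates were below the early range. As a percentage of the early log mean, mid log replicate 1 held 110 for *NAN1* and 79.3 for *UTP23*, while replicates 2 and 3 averaged 21.2 and 8.62. *IMP3* showed 50.7% in replicate 1 and 8.41% in the others, and *UTP30* 25.2% and 7.10%. *UTP22* had 107, 59.6 and 38.3 CPM in mid log, and *IMP4* 47.8, 38.8 and 38.2 CPM. *UTP21* had 169 CPM in mid log replicate 1, above every early library, and 116 and 114 CPM in the others. *UTP18* had 55.5, 56.6 and 61.5 CPM in mid log and was the only gene in which replicate 1 was the lowest mid library. The mid over early log2 fold changes were -0.97 ± 0.64 for *NAN1*, -0.97 ± 0.37 for *UTP22*, -1.62 ± 0.86 for *UTP23* and -0.46 ± 0.24 for *IMP4*, and none passed. Those of *UTP18* (0.01 ± 0.20) and *UTP21* (0.07 ± 0.23) were near 0 and turned negative with library totals (-0.80 and -0.68). Without mid log replicate 1, 8 genes were called lower in mid than in early log, where 42.8% of all genes were. *UTP18* (0.06) and *UTP21* (-0.12) were the exceptions. All mid log libraries were in run 2, so the run does not differ between replicate 1 and the others. The part of harvest density, culture or library preparation in its position was not tested.

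**Figure D4:**
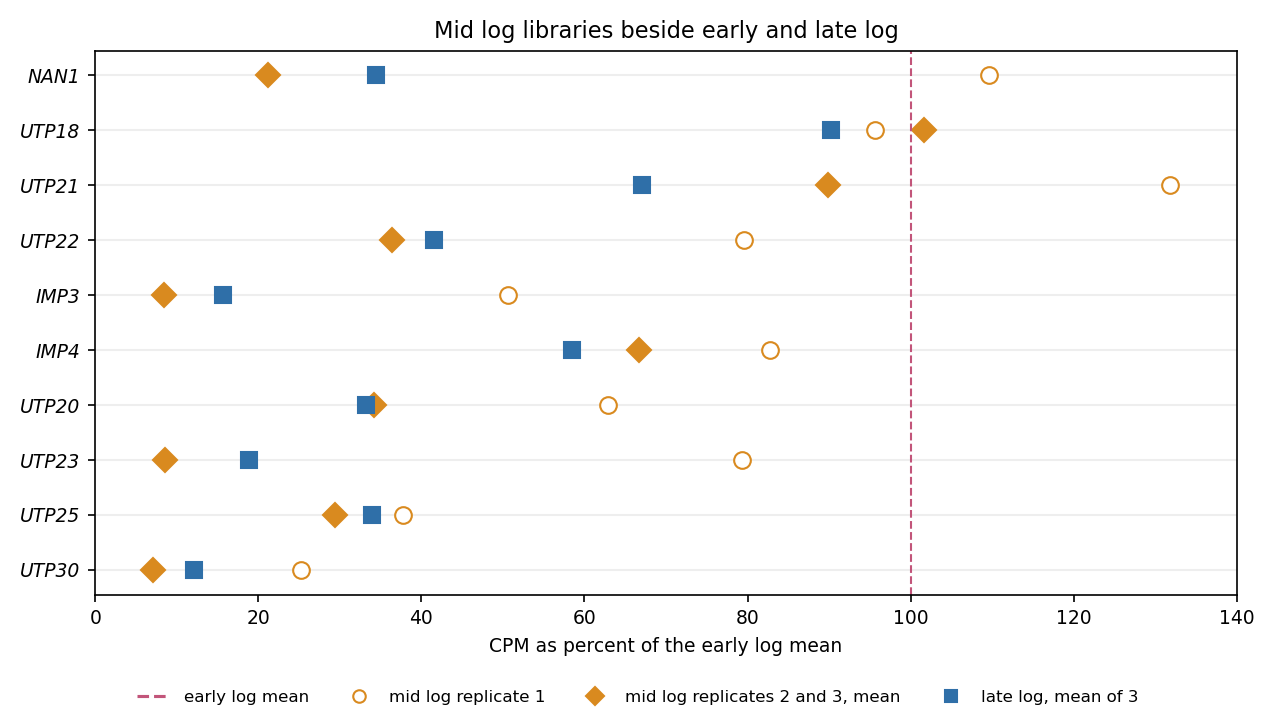
CPM as a percent of the early log mean (x axis) for mid log replicate 1 (open circles), the mean of mid log replicates 2 and 3 (diamonds) and the late log mean (squares), with the early log mean as a dashed line. Mid log replicate 1 stands at 110 for *NAN1* and 132 for *UTP21*, whereas the diamonds of *IMP3*, *UTP23* and *UTP30* lie below 10 and left of the late log squares.

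Late log was set against mid log to ask whether the change goes on. None of the 10 genes passed between late and mid log in edgeR's test or in DESeq2's. Of the 5865 genes tested in edgeR, 0.153% were called lower and 0.307% higher in late log. DESeq2 called 341 of 6769 genes in either direction. At an unadjusted p under 0.05, edgeR gave 2 of the 10, *UTP21* and *IMP4*, and DESeq2 1, where 19.8% and 17% of all genes had such a p in these tests. *UTP21* had 93.7, 76.5 and 87.6 CPM in late log, against 169, 116 and 114 CPM in mid log, a log2 fold change of -0.75 ± 0.20 (SE, adjusted p = 0.123). *IMP4* had a value of -0.43 ± 0.18 (SE, adjusted p = 0.239). Only in these 2 genes did every late library lie below every mid library, as in 9.39% of all genes. The median over the 10 genes was -0.47, against -0.11 for all genes. Without mid log replicate 1, *UTP21* (-0.60, adjusted p = 0.000862) and *IMP4* (-0.36, adjusted p = 0.0251) were called lower in late log. *UTP23* (0.96, adjusted p = 0.00622) and *IMP3* (0.72, adjusted p = 0.0231) were called higher. In that fit, 27.2% of all genes were called lower and 28.9% higher. Mid log replicates 2 and 3 were both below every late library for *UTP23*, *UTP30* and *IMP3*, and both above every late library for *UTP21* and *IMP4*.

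Since a fold change depends on how libraries are scaled, the balance among the genes was also read within each library, with ratios of counts per kb that were picked after the values were seen. An exact permutation test of 3 libraries against 3 cannot go below 0.1, so these ratios are given as a description. *IMP3* per *IMP4* was 0.762, 0.653 and 0.759 in early log, 0.441, 0.0942 and 0.0874 in mid log, and 0.191, 0.168 and 0.213 in late log. Every mid and late library was below every early library. Within the Mpp10 complex, *IMP4* made up 41.0% ± 2.21 of the counts per kb in early log, 78.5% ± 15.1 in mid log and 79.6% ± 1.66 in late log (SD, n = 3 each). *IMP3* made up 29.7% ± 2.64, 14.2% ± 11.0 and 15.2% ± 1.48 in the same order. The balance of these genes therefore shifted toward *IMP4* in each late library, whatever the scaling. *UTP18* per *UTP21* was 0.696, 0.683 and 0.775 in early log, 0.519, 0.768 and 0.852 in mid log, and 0.978, 0.806 and 1.09 in late log. The late libraries were all above the early ones, although the mid libraries overlapped with both. All ratios of this kind keep any trend of counts with coding length. With that trend removed, the late over early log2 fold changes of *UTP18* (0.12) and *UTP21* (0.10) were alike. Those of *IMP3* (-3.26) and *IMP4* (-1.02) still differed. *UTP22* made up 9.28% ± 0.348 of the UtpC counts per kb in early log, 4.04% ± 2.64 in mid log and 4.21% ± 0.617 in late log. *NAN1* made up 17.8% ± 2.40 of UtpA in early log, 11.7% ± 9.20 in mid log and 12.0% ± 3.06 in late log.

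**Figure D5:**
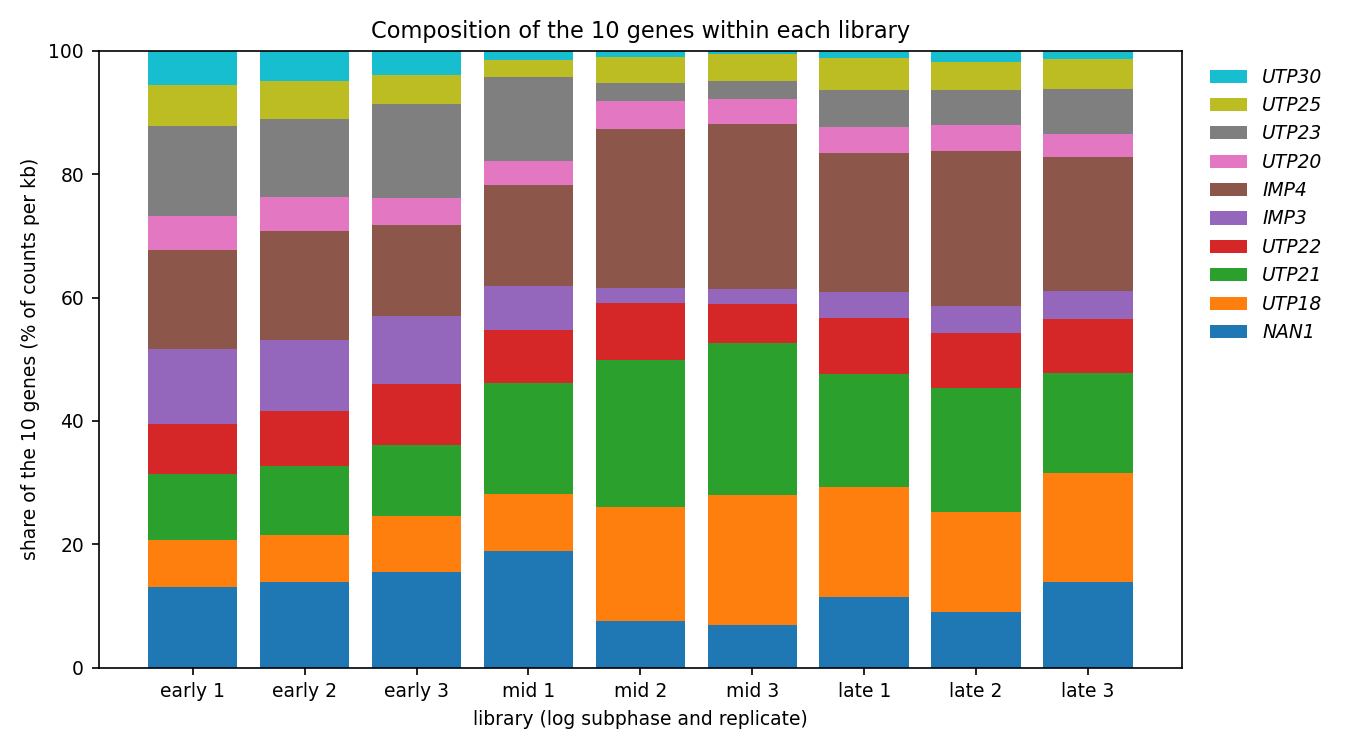
Share of each gene in the summed counts per kb of the 10 genes (y axis, in percent) in each of the 9 libraries, from early to late log. *IMP3* and *UTP23* take narrower bands in every late library than in any early one, *UTP18* and *UTP21* take wider ones, and mid log replicate 1 is nearer to the early libraries than to the late ones in *UTP18* and *UTP23*.

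Summed over the 10 genes, CPM was 877, 873 and 739 in early log, 720, 388 and 354 in mid log, and 397, 292 and 409 in late log. The sum in mid log replicate 1 was just under the lowest early library, while the other mid libraries lay in the late range. Of these 10 genes' counts per kb, *UTP18* made up 8.03% ± 0.781 in early log, 16.2% ± 6.17 in mid log and 17.2% ± 0.939 in late log. *UTP22* held a like share of 8.94% ± 0.922 in early log and 8.91% ± 0.189 in late log, with overlapping libraries. *UTP30* held 4.79% ± 0.784 in early log, 1.05% ± 0.452 in mid log and 1.44% ± 0.336 in late log.

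The size of the fall was set beside gene length, because the libraries differed in how counts follow length. In late over early log, the 4 members under 1 kb (*IMP3*, *IMP4*, *UTP23* and *UTP30*) had a log2 fold change of -2.59 at the median and the 6 longer ones -1.46. Over all genes the order was the opposite, with a median of 0.44 under 1 kb and -0.87 at 2 kb or more. Spearman's rho between log2 fold change and coding length was 0.45 over the 10 genes and -0.38 over all genes, as a description across genes that share libraries. After the length trend was removed, 8 of the 10 genes were called lower, with a median of -1.01, where 36.7% of all genes were. After a GC trend was removed 9 were, with a median of -1.08, where 37.3% of all genes were.

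A list of 63 other processome genes, drawn up with earlier results of these data known, gave the wider setting. In late over early log, 48 of the 62 tested were called lower and 3 higher, and the median was -2.12 on the log2 scale. Over all genes, 39.2% were lower and 33% higher in that comparison. In mid over early log, 35 were lower and 4 higher, with a median of -1.64, where 24.2% and 20.7% of all genes were. In late over mid log none of 61 passed, where only 0.153% of all genes were called lower and 0.307% higher. *UTP1* to *UTP16* had 13 of 16 lower in late than in early log, against the same 39.2% of all genes. No test of a difference between these lists and the 10 genes was made.

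Within the 10 genes, log2(CPM + 1) over the 9 libraries correlated with Pearson's r from 0.158 to 0.986 over the 45 pairs, with a median of 0.869. The libraries form groups, so these values describe shared group differences as much as anything else. Of 6004 genes, the profile most like that of *IMP3* was *TPK3* (r = 0.999), and 737 genes had r above 0.95 with it. *UTP30* was most like *DIN7* (r = 0.998), *UTP23* most like *CDC11* (r = 0.998), *NAN1* most like *VMA8* (r = 0.996), *UTP20* most like *ROK1* (r = 0.996) and *UTP25* most like *BRF1* (r = 0.995). *UTP22* was most like *RIO1* (r = 0.986), *UTP21* most like *VTC2* (r = 0.985) and *IMP4* most like *RRP45* (r = 0.982). *UTP18* had no gene above 0.95, and its closest was *GTR1* (r = 0.853).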

How the data were processed

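The authors aligned single-end mRNA-seq reads to the R64 genome with STAR, and per the labels counted them per gene with HTSeq. They deposited a raw count for each gene and library, with no normalization. The version is 0.12.3 in the labels, and the strand setting is not given in the sources used here. Lines that name no gene were left out (reads on no gene, 6.65% to 10.7%; not unique, 7.46% to 11.2%). For each comparison the 6 libraries concerned were fitted in edgeR 4.0.16 (R 4.3.3) with filterByExpr, TMM and the quasi-likelihood test, with Benjamini-Hochberg adjustment over all genes and a threshold of 0.05. Standard errors came from the F statistic. CPM was scaled by TMM over the 9 libraries. Depth leaves at least 16 counts for every member in every library. DESeq2 1.42.0 was an alternative test. Other alternatives were scaling, filters, a fit of all libraries, replicate number, length, GC content, sequencing run and each library left out. Copies were searched with blastn 2.17.0. The sequencing runs were taken from the methods of the study. The steps were tested on simulated data. Replicate numbers in the labels did not pair the samples. The members and lists were chosen with earlier results of these data known. All members were named by rule, with the other genes of their complexes and the gene most alike to each.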

Additional observations from a re-analysis of the deposited data

How the results depend on the processing

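Late over early log was the most stable comparison: 178 of 190 values kept direction and side of the threshold, 7 lost the call, 1 gained it and 4 turned round. The count of genes called lower was 9 in most settings and 3 with the sequencing run as a term, a fit whose spread also takes in mid log. The length trend turned *UTP18* (0.12, and 0.094 with the replicate block) and *UTP21* (0.10 in both). In mid over early log 130 of 180 values kept both. The count called lower was 4, against 2 after the GC trend was removed. With library totals it was 6, *UTP18* among them, where 2343 of 5951 genes were called in either direction. With a library left out it was 0 to 8, 8 being without mid log replicate 1. With early log 3 and mid log 1 both left out, a setting chosen after seeing the data, it was 8. In that fit 5360 of 5981 genes were called in either direction. After the length trend was removed 1 gene, *UTP21*, was called higher, where 2562 of 5951 genes were called in either direction. *UTP18* turned negative with library totals (-0.80), no filter (-0.043), at least 10 counts in every library (-0.072), all 9 libraries (-0.0056) and without early log 2, early log 3 or mid log 3, its range with single libraries left out being -0.042 to 0.062. *UTP21* turned negative with totals (-0.68), at least 10 counts (-0.010), without mid log 1 (range with single libraries left out, -0.12 to 0.16) and with both libraries left out (-0.16). In late over mid log 153 of 170 values kept both. Leaving out single libraries gave 0 to 2 called lower and 0 to 2 called higher, each 2 being without mid log 1, a setting that also turned 6 genes positive. Their ranges with single libraries left out were -1.02 to 0.52 for *NAN1*, -0.67 to 0.017 for *UTP22*, -1.29 to 0.96 for *UTP23*, -0.15 to 0.13 for *UTP25*, -0.61 to 0.59 for *UTP30* and -1.004 to 0.72 for *IMP3*. *UTP25* turned positive with totals (0.18), all 9 libraries (0.078), the length trend removed (0.087, or 0.069 with the block) and also without late log 2, and *UTP18* with totals (0.00085). The causes were not tested.

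Same-numbered libraries deviated together with correlations from -0.472 to 0.460 over 9 pairs, so the numbers were not taken as pairs. With the replicate block the counts called lower were 6, 9 and 0 in mid over early, late over early and late over mid log. In these fits 2648 of 5951, 4210 of 5954 and 1 of 5865 genes were called in either direction. *UTP30* turned positive in late over mid log (0.037, or 0.025 and 0.019 with the length or GC trend removed as well). Scaling by library totals moved the median of all genes to -0.89, -0.68 and 0.13 in that order, and that of the members to -1.78, -2.19 and -0.29. The lowest counts, 16 in *UTP30*, and 3 libraries a group limit the precision.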
